A study of Homo sapiens with 17 samples.

Results

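The NF-kB subunits and the genes of its feedback loop were followed in MOLM13, an established acute myeloid leukaemia cell line positive for MLL-AF9. The 10 genes were chosen by name from textbook knowledge of the pathway, with earlier results of these data known. Their counts beside those of all genes are therefore descriptive. The genes were found by symbol among 58278 gene identifiers per library. They were the subunit genes NFKB1, NFKB2, REL, RELA and RELB, the inhibitors NFKBIA, NFKBIE and TNFAIP3, the response gene TNFAIP2 and the ligand TNF. Gene-level RNA sequencing counts came from 17 libraries in 2 experiments, all of MOLM13 cells that had gone through CRISPR knockout with a guide. The HOXA9 and SAFB experiment held 3 libraries of cells with a non-targeting guide (NT), 3 with a HOXA9 knockout (HOXA9_KO) and 3 with a SAFB knockout (SAFB_KO). The MEIS1 experiment held 4 libraries with a non-targeting guide (NT_MEIS1ex) and 4 with a MEIS1 knockout (MEIS1_KO). Whether the libraries are separate cultures or clones is not stated in the labels, so p-values measure the spread between libraries, and no time after editing is given. HOXA9 and MEIS1 are homeobox factors of the MLL-fusion programme, and SAFB binds both RNA and matrix-attachment DNA in the nucleus.

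NF-kB is a family of transcription factor dimers that inhibitor proteins of the IkB family hold in the cytoplasm. Signals from receptors such as those for TNF lead a kinase complex to mark the inhibitors for destruction, and the freed dimers enter the nucleus and switch on genes that include their own inhibitors. In monocytes and other myeloid cells the pathway drives inflammatory genes, with TNF both a trigger and a product of it.

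The libraries held 23.3 to 67.8 M counts in genes. All 10 marker genes of the line lay above 1 CPM (counts per M counts in genes, after TMM scaling within each experiment), whereas 9 of 10 erythroid and megakaryocyte genes and 6 of 12 lymphoid genes lay under 1 CPM in every library. Mitochondrial rRNA took 22.5 to 28.4% of gene counts in NT, 31.9 to 35.5% in HOXA9_KO and 24.9 to 27% in SAFB_KO, but at most 0.00941% in the MEIS1 experiment, so levels are compared within an experiment. The RNA of each targeted gene was lower in its knockout, with no overlap between groups: HOXA9 at 21.1 to 21.9 against 40.1 to 42 CPM, SAFB at 19.4 to 22.2 against 33.6 to 40.9 CPM, and MEIS1 at 10.3 to 12.8 against 31.7 to 33.4 CPM. MEIS1 fell by 1.54 on the log2 scale in MEIS1_KO, and also fell by 1.54 in HOXA9_KO (edgeR, adjusted p 9.4e-29). The lowest count of any of the 10 genes in a library was 173, for RELB.

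The promoters of several of these genes hold the kB consensus, the letters that NF-kB dimers recognise. They are shown because NF-kB is known to act back on its own genes through such letters. RefSeq promoter windows of GRCh38.p14, which run from 250 bases before a transcript start to 50 after it, were found for 8 of the 10 genes, in 12 windows. RELB and NFKBIE had none. On either strand the consensus matched 6 of these 12 windows, against 11.3% of all 35116 windows, and the 6 windows belong to NFKB1, NFKB2, REL, NFKBIA and TNFAIP3. Each line below gives a 30-base stretch on the strand of the gene with the match in capitals. Distances run from the transcript start to the first base of the match, and the NFKB2 match at -107 reads as a match on both strands.
NFKB1, chr4:102501300-102501329, plus strand, -49: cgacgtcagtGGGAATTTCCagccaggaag
NFKB2, chr10:102394461-102394490, plus strand, -107: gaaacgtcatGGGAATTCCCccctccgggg
NFKB2, chr10:102395674-102395703, plus strand, -21: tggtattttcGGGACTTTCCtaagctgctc
REL, chr2:60881517-60881546, plus strand, -47: cgtcagccgcGGGAAATTCCcctcccgcca
NFKBIA, chr14:35404811-35404840, minus strand, -81: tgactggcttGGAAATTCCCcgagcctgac
TNFAIP3, chr6:137867182-137867211, plus strand, -67: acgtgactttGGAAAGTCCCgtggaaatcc
TNFAIP3, chr6:137867194-137867223, plus strand, -55: aaagtcccgtGGAAATCCCCgggcctacaa

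The TNFAIP3 window thus held a pair of matches that lie side by side and do not overlap, and the NFKB2 windows held others at -106, -78 and -176, of which the first overlaps the match at -107. A match at -46 in REL overlaps the one shown. The windows of RELA, TNFAIP2 and TNF held no match, which says only that these letters are not in those windows. The interferon-response element GAAANNGAAA was found in the RELA window only, among the 8 genes, and in 3.57% of all windows. The MEIS-type motif TGACAG was found in windows of NFKB1, NFKB2 and TNFAIP2 and in 15.8% of all windows. None of these matches overlapped a kB match, and no binding was measured here. The 250 bases before the starts of NFKBIA and TNF, a gene with a match and the gene that changed most in HOXA9_KO, read as follows.
NFKBIA, chr14:35404750-35404999, minus strand: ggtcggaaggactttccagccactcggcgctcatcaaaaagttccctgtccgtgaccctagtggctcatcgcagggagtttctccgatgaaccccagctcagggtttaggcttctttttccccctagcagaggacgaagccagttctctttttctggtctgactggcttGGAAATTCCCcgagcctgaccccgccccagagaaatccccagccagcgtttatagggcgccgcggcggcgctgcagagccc
TNF, chr6:31575315-31575564, plus strand: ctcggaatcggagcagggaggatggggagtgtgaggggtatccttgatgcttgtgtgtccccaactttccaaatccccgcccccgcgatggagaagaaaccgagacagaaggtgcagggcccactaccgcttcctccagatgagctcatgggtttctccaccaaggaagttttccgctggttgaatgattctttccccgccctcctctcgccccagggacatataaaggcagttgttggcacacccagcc

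Levels of different genes were compared as CPM per kb of exon. In NT, NFKB1, TNF, NFKBIA, TNFAIP3, TNFAIP2, RELA and NFKBIE lay close together, from 8.92 CPM per kb for NFKB1 to 6.89 for NFKBIE, and each overlapped its neighbour in that order. NFKB2 at 3.16, REL at 2.18 and RELB at 1.4 CPM per kb followed, each separate from the next. NFKB1, whose precursor gives p50, made up 39.1% ± 0.173 (SD, n = 3) of the summed length-scaled level of the 5 subunits in NT, and RELA, the main activating subunit, 31.4% ± 0.402. In NT_MEIS1ex the order of those subunits was the other way round, with RELA at 43.1% ± 1.16 (SD, n = 4) and NFKB1 at 31.1% ± 1.5. The controls come from separate experiments whose libraries differ, so effects of the cells and of the libraries cannot be told apart here. For REL, 43.3% of the exon sequence also belongs to AC010733.2 on the same strand in GENCODE 29, and reads there may not have been counted for either gene. The length-scaled level of REL may thus be too low, and its rank and the subunit shares depend on this.

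In HOXA9_KO the order of the feedback genes spread out. TNF stood at 23.6 CPM per kb, TNFAIP2 at 16.9, NFKBIE at 14.3 and NFKBIA at 14.2, all above the subunits NFKB1 at 10.4 and RELA at 8.41. TNFAIP3 stood at 3.94, beside NFKB2 at 3.57. In SAFB_KO TNFAIP3 also stood apart from the other feedback genes, at 4.22 CPM per kb against 8.57 to 10.6 for TNFAIP2, NFKBIA, NFKBIE and TNF. In the MEIS1 experiment TNF was the highest of the 10 genes in both groups, at 26.1 and 29.1 CPM per kb.

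**Figure D1:**
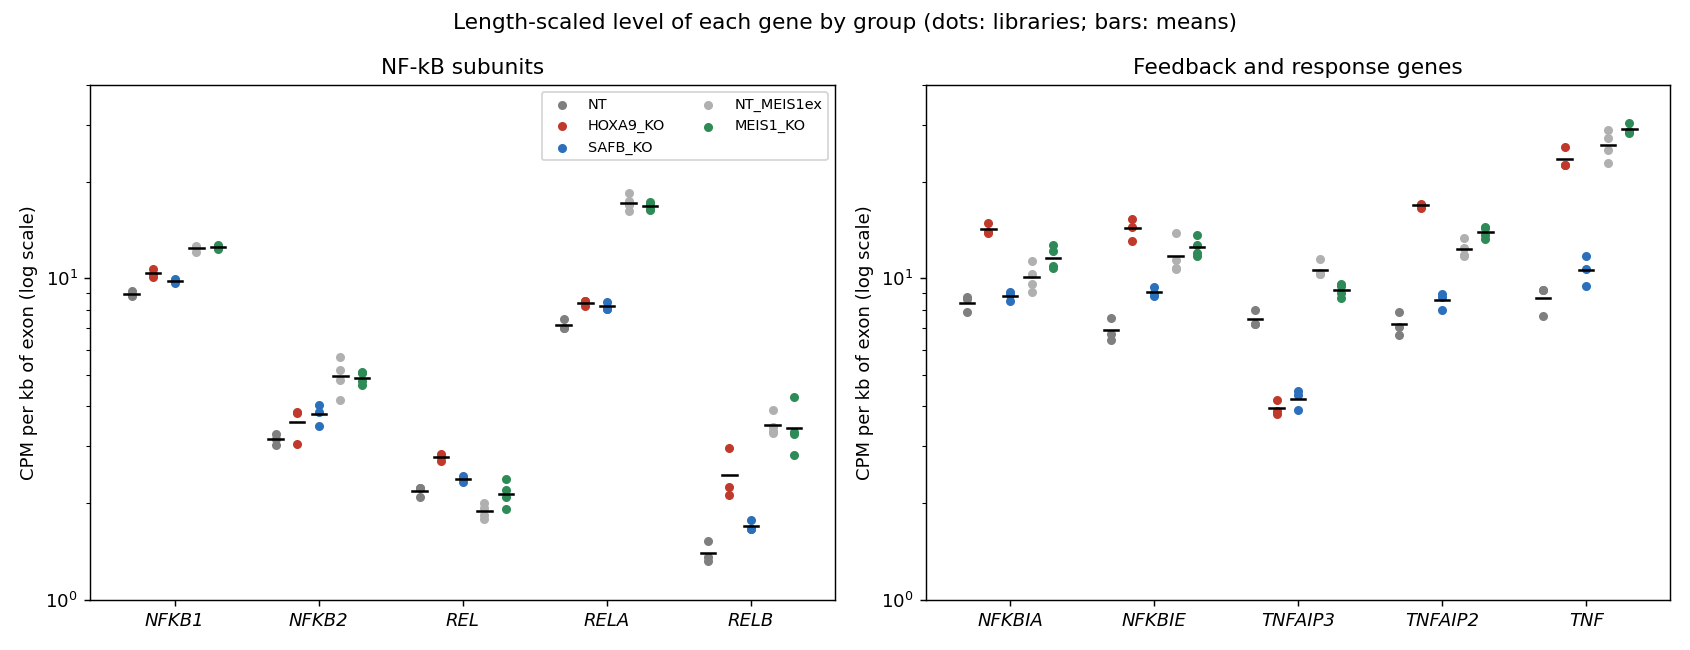
Level of each gene in CPM per kb of exon (log axis) in the 5 groups; dots are libraries and bars are group means. TNFAIP3 sits at 3.94 and 4.22 CPM per kb in HOXA9_KO and SAFB_KO, below the other feedback genes, and TNF is the highest of the 10 genes in HOXA9_KO at 23.6.

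HOXA9_KO was set against NT to find which of these genes depend on HOXA9. Of the 10 genes, 8 rose, TNFAIP3 fell and NFKB2 was not called at an adjusted p under 0.05 in the edgeR quasi-likelihood test. Over all 18876 tested genes 27.6% were called higher and 29.9% lower. The 2 groups did not overlap for 9 of the 10 genes, against 62.6% of all tested genes. The median log2 change of the 10 genes was 0.55, beside -0.07 over all tested genes.

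Of the subunits, RELB had the largest change and the other 4 stood at 0.18 to 0.35. RELB (GRCh38 chromosome 19, 45001430 to 45038198, plus strand), the partner of p52 in the non-canonical pathway, lay at 4.02, 4.6 and 4.13 CPM in NT and 8.98, 6.81 and 6.43 CPM in HOXA9_KO, with the first knockout library the highest. It rose by 0.80 ± 0.12 (log2 fold change ± SE, adjusted p 1.5e-07). REL, which encodes c-Rel (chromosome 2, 60881521 to 60931610, plus strand), lay at 27.5 to 29.4 CPM in NT and 35.7 to 37.6 in HOXA9_KO and rose by 0.35 ± 0.05 (adjusted p 2.5e-07). NFKB1 (chromosome 4, 102501329 to 102617302, plus strand) rose by 0.22 ± 0.04, from 55.8 to 64.9 CPM. RELA (chromosome 11, 65653596 to 65663094, minus strand) rose by 0.23 ± 0.05, from 39.1 to 46 CPM. NFKB2 (chromosome 10, 102394110 to 102402529, plus strand), which encodes the precursor of p52, lay at 14.2, 13.6 and 14.7 CPM in NT and 17.2, 13.7 and 17.1 in HOXA9_KO. Its second knockout library lay within the NT range, and the change of 0.18 ± 0.08 had an adjusted p of 0.0547. Without that library it was 0.28 with an adjusted p of 0.00345. NFKB2 was also called in some other fits with all libraries kept, such as DESeq2 (0.21, adjusted p 0.0393). Scaled to nuclear protein-coding counts it stood at -0.08 and was not called in edgeR (adjusted p 0.408).

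Both IkB inhibitors rose, NFKBIE by more than any subunit and NFKBIA, at 0.76, by about as much as RELB. NFKBIE (chromosome 6, 44258166 to 44265788, minus strand) encodes IkB-epsilon and lay at 17.3, 16.6 and 19.5 CPM in NT and 39.6, 37.5 and 33.9 CPM in HOXA9_KO, with every knockout library above every control. That was a 2.08-fold rise (95% interval 1.9 to 2.28, adjusted p 7.6e-20). NFKBIA (chromosome 14, 35401511 to 35404749, minus strand) encodes IkB-alpha, which NF-kB itself induces, and lay at 18.6, 20.5 and 20.7 CPM in NT and 35.4, 32.9 and 32.7 CPM in HOXA9_KO. It rose 1.69-fold (1.55 to 1.84, adjusted p 2.3e-15). Per RELA, on the length-scaled levels, NFKBIA went from 1.17 ± 0.0547 to 1.69 ± 0.113 and NFKBIE from 0.962 ± 0.0501 to 1.71 ± 0.164 (SD, n = 3 each). Both inhibitor RNAs thus rose by more than the RNA of RELA, with no overlap between the groups in either ratio.

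TNFAIP3 (chromosome 6, 137867188 to 137883312, plus strand) went the other way. It encodes A20, a ubiquitin-editing enzyme that shuts the pathway off upstream of the kinase complex and, like NFKBIA, is a textbook NF-kB target. Its libraries lay at 40.3, 36.4 and 36.4 CPM in NT and 19.5, 19.1 and 21.1 CPM in HOXA9_KO. It fell by 0.92 ± 0.06 on the log2 scale (adjusted p 4.8e-18), to 0.527 of the NT level. The length-scaled ratio of TNFAIP3 to NFKBIA went from 0.892 ± 0.108 in NT to 0.278 ± 0.0223 in HOXA9_KO (SD, n = 3 each).

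The largest rises were those of the ligand and of a myeloid response gene. TNF (chromosome 6, 31575567 to 31578336, plus strand) had levels of 15.4, 15.5 and 12.8 CPM in NT and 43, 37.9 and 37.9 CPM in HOXA9_KO. The groups were far apart, and the rise was 2.71-fold (2.44 to 3, adjusted p 3.8e-19). TNFAIP2 (chromosome 14, 103123442 to 103137439, plus strand), a TNF-induced gene expressed in myeloid cells, lay at 33.6, 35.6 and 39.5 CPM in NT and 83.6, 85 and 86 CPM in HOXA9_KO, a 2.35-fold rise (2.19 to 2.52). The monocyte and granulocyte list moved with them. Of its 20 genes 18 were tested and all 18 rose, with a median of 2.01, and their summed level went from 4737 to 4857 CPM in NT to 30219 to 33154 in HOXA9_KO. Most of that sum was LYZ, which encodes lysozyme, and the other 19 genes went from 638 to 653 CPM to 2161 to 2174. The monocyte markers FCN1, CD163 and MRC1 lay under 1 CPM in every library. CD163 and MRC1 were not tested, whereas FCN1 was among the 18 that rose, from a mean of 0.0563 CPM in NT to 0.674 in HOXA9_KO. In bulk RNA more cells of a type and more RNA per cell cannot be told apart, and the part of this programme in the rises of TNF and TNFAIP2 was not tested.

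Scaling decided the direction of the small changes. When libraries were scaled to their counts of nuclear protein-coding genes, the median of all tested genes moved by -0.25 and 23.5% of calls in this comparison were higher, against 48% with TMM. NFKB1 then stood at -0.03, RELA at -0.02 and NFKB2 at -0.08, and REL at 0.10 was not called (adjusted p 0.108). RELB, NFKBIA, NFKBIE, TNFAIP2 and TNF were called higher under both scalings, and TNFAIP3 lower. Rescaling moves every gene and the median of all genes alike, so changes relative to that median are no check on the scaling. Those changes were 0.29 for NFKB1, 0.30 for RELA and 1.51 for TNF under either scaling.

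**Figure D2:**
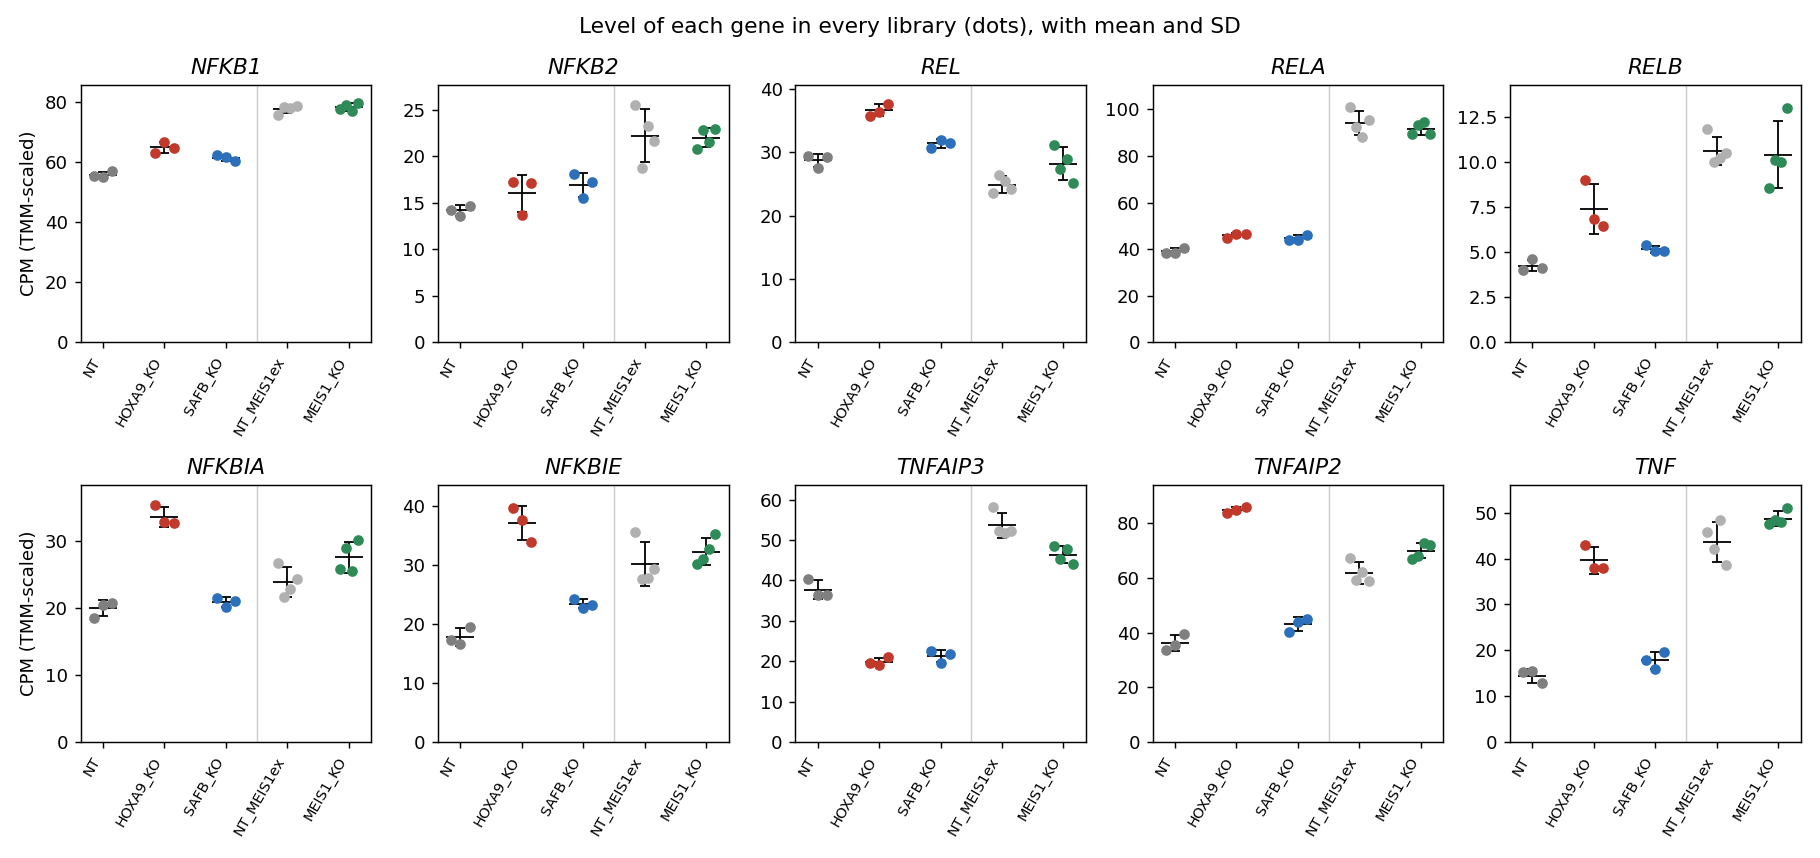
CPM of each gene in every library (dots) with the mean and SD of each group; the grey line parts the experiments, and each axis starts at 0. TNFAIP3 is at 19.1 to 22.5 CPM in all libraries of HOXA9_KO and SAFB_KO and at 36.4 to 40.3 in NT, and TNF and TNFAIP2 rise in HOXA9_KO far above SAFB_KO.

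SAFB_KO was set against the same NT libraries, so the comparisons of both knockouts share their controls and are given side by side. In SAFB_KO 6 of the 10 genes rose, TNFAIP3 fell and 3 were not called. Over all tested genes 20.2% were called higher and 15.3% lower. The groups did not overlap for 9 of the 10 genes, against 46.3% of all tested genes, and the median change was 0.22, beside -0.02 over all genes. The monocyte and granulocyte list moved here too. Of 18 tested genes 17 rose, with a median of 1.15, and the sum without LYZ was 1250 to 1266 CPM against 638 to 653 in NT. Its part in the changes of the 10 genes was not tested.

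TNFAIP3 had by far the largest change of the 10 genes in SAFB_KO. It lay at 22.5, 19.7 and 21.8 CPM, each below every NT library, and fell by 0.83 ± 0.06 (adjusted p 6.1e-16), to 0.563 of the NT level. The other changes were at most 0.39. NFKBIE lay at 24.2, 22.7 and 23.2 CPM and rose 1.31-fold (1.2 to 1.44, adjusted p 3.1e-06). TNFAIP2, at 40.1, 44 and 45.1 CPM, rose by 0.26 ± 0.05 (adjusted p 8.0e-05), and TNF, at 18, 15.9 and 19.6 CPM, by 0.28 ± 0.08 (adjusted p 0.00423). NFKBIA did not follow NFKBIE. Its libraries at 21.5, 20.1 and 21.1 CPM overlapped those of NT, with a change of 0.07 (95% interval -0.06 to 0.19, adjusted p 0.439).

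Among the subunits in SAFB_KO, NFKB1 rose by 0.14 ± 0.04, RELA by 0.19 ± 0.05 and NFKB2 by 0.25 ± 0.08 (adjusted p 0.00734, 0.00134 and 0.00975). REL at 0.13 ± 0.05 and RELB at 0.28 ± 0.12 were not called (adjusted p 0.0627 and 0.0749). REL was called in some other fits with all libraries kept, such as DESeq2 (0.14, adjusted p 0.0438). The NFKB2 call was lost without NT replicate 2 (adjusted p 0.0505) or SAFB_KO replicate 1 (0.0682), that of TNF without SAFB_KO replicate 3 (0.0548), and that of NFKB1 when only genes with a mean of at least 2 CPM were tested (0.0868). With nuclear protein-coding scaling the median of all genes moved by -0.14, 23.6% of calls were higher against 56.9% with TMM, REL stood at -0.01 and NFKBIA at -0.07, and only NFKBIE of the 6 stayed called higher, at 0.26 (adjusted p 0.00184). TNFAIP3 was called lower under that scaling too, at -0.97.

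HOXA9_KO and SAFB_KO were then compared with each other. TNF was higher in HOXA9_KO by 1.16 ± 0.08 (adjusted p 1.1e-15), TNFAIP2 by 0.98 ± 0.05, NFKBIA by 0.69 ± 0.06, NFKBIE by 0.66 ± 0.06, RELB by 0.52 ± 0.12 and REL by 0.22 ± 0.06. Those 6 genes were the only ones of the 10 called higher, against 20.1% of all tested genes, and none was called lower, against 20.5%. For TNFAIP3 the difference was -0.09 (95% interval -0.23 to 0.04, adjusted p 0.279), so its fall in either knockout was of a size that this test could not part. The differences of NFKB1, RELA and NFKB2 were 0.08, 0.04 and -0.07 (adjusted p 0.166 to 0.549). With nuclear protein-coding scaling 29.5% of calls were higher against 49.4% with TMM. NFKB1 and RELA then stood at -0.04 and -0.07, the REL call was lost (adjusted p 0.105), and TNFAIP3 at -0.21 was called lower in HOXA9_KO (adjusted p 0.00918).

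**Figure D3:**
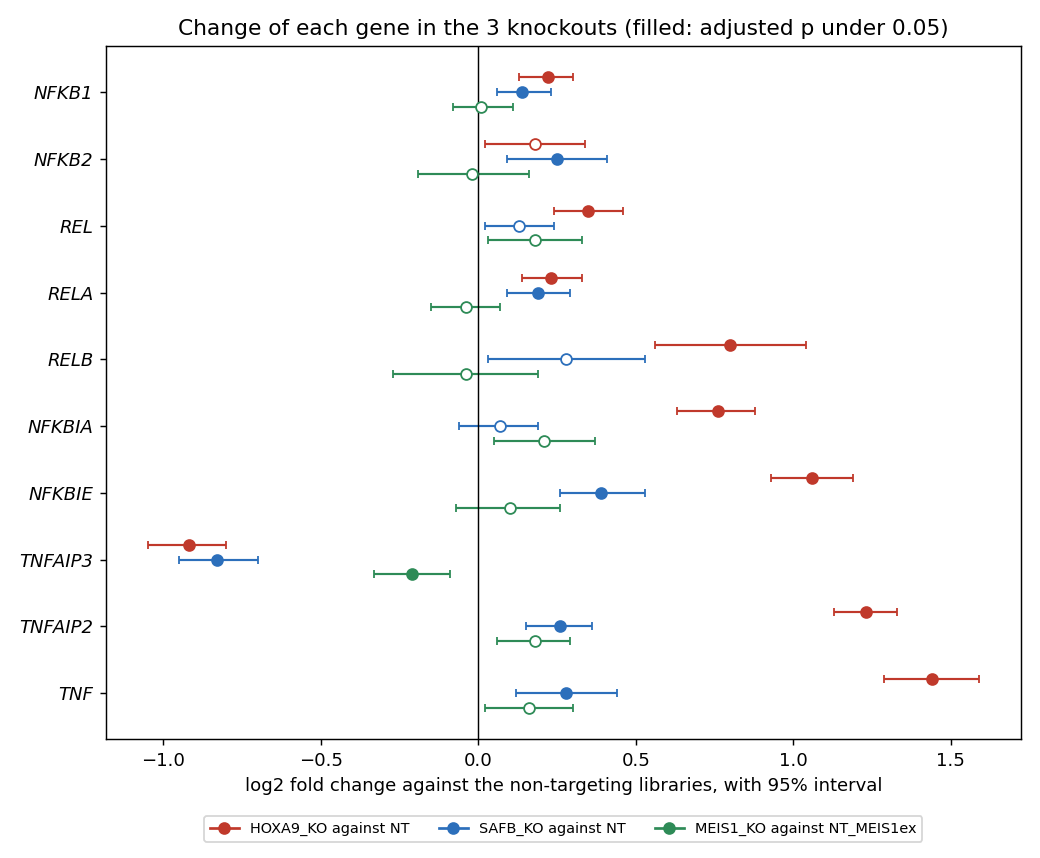
Log2 fold change of each gene in each knockout against the non-targeting libraries of its experiment, with 95% intervals; filled dots passed an adjusted p under 0.05 in edgeR. TNFAIP3 is below 0 in all 3 knockouts, at -0.92, -0.83 and -0.21, while TNF stands at 1.44, 0.28 and 0.16.

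MEIS1_KO, with its own controls, asked the same of MEIS1. TNFAIP3 was the only 1 of the 10 genes called, and it fell. It lay at 58.1, 52.1, 51.8 and 52.3 CPM in NT_MEIS1ex and 48.5, 45.4, 47.8 and 44 CPM in MEIS1_KO. The groups did not overlap, as was so for 15.7% of all 15744 tested genes, and the fall was 0.21 ± 0.06 on the log2 scale (adjusted p 0.0307), to 0.867 of the control level. Over all tested genes 4.97% were called higher and 3.84% lower. The call was lost without NT_MEIS1ex replicate 3 or 4 or without MEIS1_KO replicate 2, 3 or 4 (adjusted p 0.0514 to 0.102), with changes of -0.22 to -0.18. It was also lost with nuclear protein-coding scaling (-0.18, adjusted p 0.0685), under which 68.5% of all calls were higher against 56.5% with TMM.

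The other 9 genes were not called in MEIS1_KO, and the median of the 10 was 0.05, beside 0.00 over all tested genes. Of 16 tested monocyte and granulocyte genes 14 rose, with a median of 0.71, and the sum without LYZ went from 613 to 710 CPM in NT_MEIS1ex to 947 to 993 in MEIS1_KO. TNFAIP2 lay at 67.4, 59.3, 62.3 and 58.9 CPM in NT_MEIS1ex and 66.9, 68.2, 72.8 and 72 CPM in MEIS1_KO, a change of 0.18 ± 0.06 (adjusted p 0.058). With nuclear protein-coding scaling it stood at 0.20 and was called higher (adjusted p 0.0337). NFKBIA, at 21.6 to 26.8 and 25.6 to 30.2 CPM, had a change of 0.21 ± 0.08 (adjusted p 0.104), and TNF, at 38.5 to 48.4 and 47.5 to 51 CPM, of 0.16 ± 0.07 (adjusted p 0.153). All these groups overlapped. NT_MEIS1ex replicate 1 was the highest control library for 7 of the 10 genes. Without it NFKBIA at 0.27 and TNFAIP2 at 0.22 were called higher (adjusted p 0.0192 and 0.00584), and TNFAIP3 at -0.16 stayed called lower (adjusted p 0.0404). Of the subunits, REL stood at 0.18 ± 0.07 (adjusted p 0.121), and NFKB1, NFKB2, RELA and RELB between -0.04 and 0.01. The interval of RELA ran from -0.15 to 0.07 and that of NFKB1 from -0.08 to 0.11.

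Whether the effects of HOXA9 and MEIS1 knockout differed was tested in 1 fit of all 17 libraries. Each knockout was present in only 1 experiment, and the experiments differed, as in mitochondrial rRNA. A difference of effects therefore cannot be told apart from a difference between experiments, for SAFB against MEIS1 as well. The HOXA9 effect was higher by 1.32 ± 0.11 for TNF (adjusted p 9.8e-12), 1.10 ± 0.08 for TNFAIP2, 0.88 ± 0.17 for RELB and 0.59 ± 0.10 for NFKBIA. For NFKBIE the fold change in HOXA9_KO was 2.01 times that in MEIS1_KO (95% interval 1.71 to 2.35, adjusted p 7.8e-09). It was also higher by 0.32 ± 0.07 for RELA and 0.25 ± 0.06 for NFKB1, and lower for TNFAIP3, with a difference of -0.67 ± 0.09 (adjusted p 1.1e-07). That made 7 genes higher and 1 lower, against 24.5% and 19.7% of all 18836 tested genes. The RNA of MEIS1 fell by 1.54 in either knockout, and its protein was not measured. The part of MEIS1 in the HOXA9 effect was not tested. REL and NFKB2 were not called in edgeR (adjusted p 0.0517 and 0.127). REL was called in some other fits with all libraries kept, such as DESeq2 (0.23, adjusted p 0.0265). NFKB2 was called in edgeR without HOXA9_KO replicate 2 (adjusted p 0.0254) or NT_MEIS1ex replicate 2 (0.0237). With nuclear protein-coding scaling 19.4% of calls were higher against 55.5% with TMM, and NFKB1 stood at -0.07, RELA at -0.01, REL at -0.11 and NFKB2 at -0.09. The SAFB effect differed from the MEIS1 effect in TNFAIP3, at -0.61 ± 0.09 (adjusted p 4.2e-06), and in RELA, at 0.24 ± 0.07 (adjusted p 0.0172). Over all genes 12.4% were called higher and 8.49% lower in that comparison. Of its calls 59.3% were higher, against 14.9% with nuclear protein-coding scaling and 46.3% among genes with a mean of at least 2 CPM. The RELA call was lost without SAFB_KO replicate 3 (adjusted p 0.0529) and under both of those settings, at 0.07 and 0.17, and NFKBIA at -0.31 was called lower with nuclear protein-coding scaling (adjusted p 0.0239).

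The genes around the 10 were read from lists of pathway parts. Their counts stand beside 27.6% of all tested genes higher and 29.9% lower in HOXA9_KO, 20.2% and 15.3% in SAFB_KO, and 4.97% and 3.84% in MEIS1_KO. Of 13 receptors and ligands, 7 rose and 1 fell in HOXA9_KO, 4 rose and 1 fell in SAFB_KO, and 4 of 10 tested rose in MEIS1_KO, with medians of 0.29, 0.02 and 0.18. TNFRSF1B, which encodes TNF receptor 2, rose by 1.80 ± 0.04 in HOXA9_KO, from 45.4 to 157 CPM, by 0.90 ± 0.04 in SAFB_KO and by 0.26 ± 0.06 in MEIS1_KO. LTBR, the lymphotoxin-beta receptor, rose by 0.76 ± 0.04 and 0.28 ± 0.04 in HOXA9_KO and SAFB_KO. TNFSF13B, the ligand BAFF, rose by 0.73 ± 0.04 in HOXA9_KO and by 0.36 ± 0.08 in MEIS1_KO, and stood at 0.02 in SAFB_KO. TNFSF10, the ligand TRAIL, fell by 0.91 in both HOXA9_KO and SAFB_KO and rose by 0.40 in MEIS1_KO.

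Of 25 tested adaptors and kinases 13 rose and 4 fell in HOXA9_KO, 5 rose and 4 fell in SAFB_KO, and 1 rose and 1 fell in MEIS1_KO, with medians of 0.13, 0.04 and -0.03. The counts in SAFB_KO and MEIS1_KO were near the shares of all tested genes. TAB2, an adaptor of the kinase TAK1, rose by 0.73 ± 0.05 and 0.34 ± 0.05 in HOXA9_KO and SAFB_KO, and IRAK1, a kinase of Toll-like receptor signalling, by 0.47 ± 0.04 in HOXA9_KO. RBCK1, which encodes HOIL-1 of the linear ubiquitin ligase, fell in all 3 knockouts, at -0.22 in HOXA9_KO and -0.29 in both SAFB_KO and MEIS1_KO. MYD88, an adaptor of Toll-like receptors, rose by 0.28 ± 0.05 in MEIS1_KO but fell by 0.36 in SAFB_KO, and stood at -0.11, not called, in HOXA9_KO.

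Among other inhibitors of the pathway and other IkB-family genes more rose than fell in HOXA9_KO and SAFB_KO with TMM scaling. This list held BCL3 and NFKBIZ, IkB-family genes that do not act only as inhibitors, called at 0.68 and -0.46 in HOXA9_KO. Of 17 tested, 10 rose and 3 fell in HOXA9_KO, with a median of 0.21, 8 rose and 2 fell in SAFB_KO, with a median of 0.12, and N4BP1 alone was called in MEIS1_KO, a rise of 0.20 ± 0.05. N4BP1 was called lower in HOXA9_KO and SAFB_KO, at -0.23 and -0.28. TNIP1 and TAX1BP1, which encode partners of A20, rose by 0.51 ± 0.04 and 0.50 ± 0.04 in HOXA9_KO and by 0.27 ± 0.04 and 0.26 ± 0.04 in SAFB_KO, where TNFAIP3 fell. IRAK3, a brake on Toll-like receptor signalling, rose by 0.68 ± 0.03 and 0.32 ± 0.03. With nuclear protein-coding scaling the genes of this list split 6 higher to 5 lower in HOXA9_KO and 3 to 4 in SAFB_KO, with medians of -0.04 and -0.02. The adaptors and kinases split 4 to 14 and 1 to 9, with medians of -0.12 and -0.10, and the receptors and ligands 5 to 3 and 3 to 3, with medians of 0.04 and -0.12. Under that scaling 2861 of all 18876 tested genes were called higher and 9293 lower in HOXA9_KO, with a median of -0.32. In SAFB_KO 1712 were called higher and 5535 lower, with a median of -0.16. TNIP1, TAX1BP1, IRAK3, TNFRSF1B, LTBR and TAB2 were called higher in both knockouts under either scaling.

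Of 25 tested NF-kB target genes 15 rose and 7 fell in HOXA9_KO, with a median of 0.61, and 13 rose and 6 fell in SAFB_KO, with a median of 0.21. With nuclear protein-coding scaling 15 rose and 8 fell in HOXA9_KO, and 8 rose and 8 fell in SAFB_KO. Of all 18876 tested genes that scaling called 2861 higher and 9293 lower in HOXA9_KO, and 1712 and 5535 in SAFB_KO. In MEIS1_KO 6 of 24 rose and 1 fell, with a median of 0.10. CFLAR, which blocks caspase-8, rose by 1.01 ± 0.04 in HOXA9_KO, 0.24 in SAFB_KO and 0.32 ± 0.06 in MEIS1_KO. NINJ1, a membrane rupture protein, rose by 1.65 ± 0.07 in HOXA9_KO and 0.51 ± 0.07 in SAFB_KO. IL1B, the cytokine interleukin-1 beta, rose by 1.97 in HOXA9_KO, 0.95 ± 0.12 in SAFB_KO and 0.96 ± 0.13 in MEIS1_KO. Its group means were low, at 3.07 CPM in NT and 2.79 CPM in NT_MEIS1ex. IRF1, an interferon-responsive factor, was called lower in HOXA9_KO and SAFB_KO, at -0.31 and -0.69. Among 30 listed targets 7, including CXCL1, CCL4, CCL20, CD69 and IL6, lay under 1 CPM in every library. CCL4, CCL20 and CD69 were still tested, and they are among the genes counted as falling in both HOXA9_KO and SAFB_KO.

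**Figure D4:**
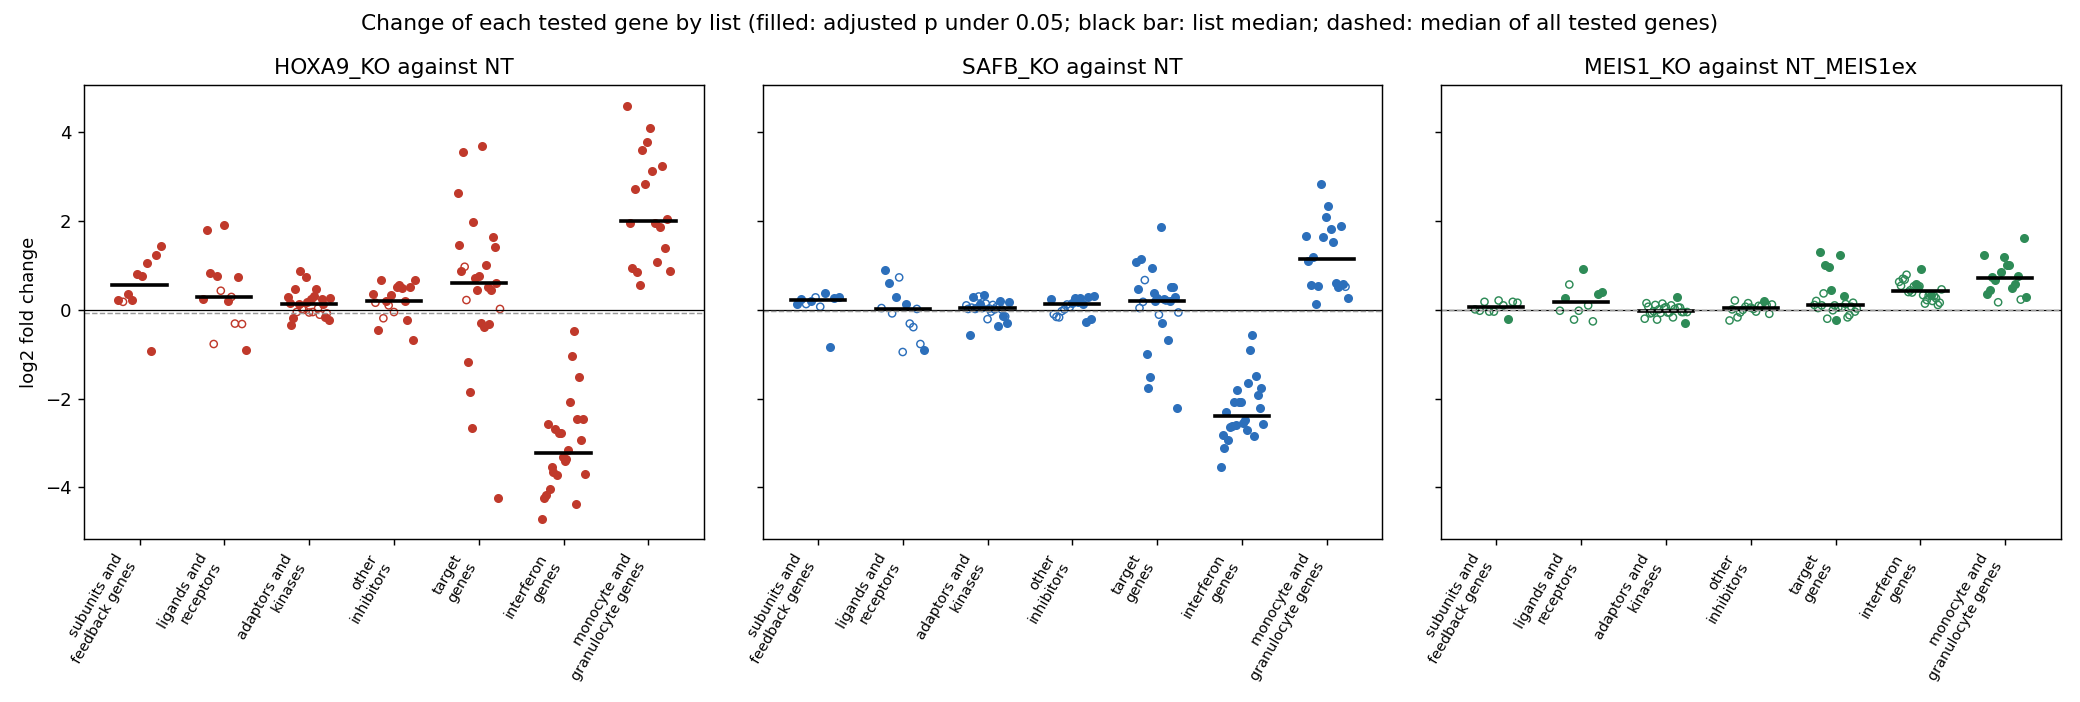
Log2 fold change of each tested gene by list in the 3 knockouts; filled dots passed an adjusted p under 0.05, black bars are list medians and dashed lines the median of all tested genes. Interferon genes lie below 0 in HOXA9_KO and SAFB_KO, with medians of -3.23 and -2.39, and at 0.42 in MEIS1_KO.

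The fall of TNFAIP3 in HOXA9_KO and SAFB_KO came beside a fall of interferon-response genes. All 24 listed genes fell in both, and their summed level was 2037 to 2748 CPM in NT, 491 to 521 in HOXA9_KO and 652 to 710 in SAFB_KO. IRF7, an interferon-induced factor, changed by -2.07 and -1.64. In the MEIS1 experiment the same sum was 587 to 773 CPM in NT_MEIS1ex and 824 to 1136 in MEIS1_KO. There 4 of the 24 genes rose and none fell. TNFAIP3 stood at -0.21 in MEIS1_KO, a call lost when any of several libraries was left out. The sums are not compared between the experiments. The NT libraries, high in interferon genes, also had 16.4 to 18.1% of reads outside genes, against 8.65 to 12.7% in HOXA9_KO and SAFB_KO. The part of these differences in the fall of TNFAIP3 was not tested.

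The genes most like 4 of the 10 were sought by the correlation of log2 CPM, centred on the controls of each experiment, over 17 libraries and among 11306 genes. For TNFAIP3 these were STC2, ASNS and ATF4, with Pearson r of 0.984, 0.979 and 0.976. For TNFAIP2 they were CTSD at 0.991, SEMA6B at 0.989 and PKM at 0.989, and for NFKBIA ADAMTSL4 at 0.960, UNC13D at 0.959 and STAT3 at 0.958. For NFKB2 they were MOB2 at 0.889, APBA2 at 0.862 and SMIM26 at 0.849. The 17 points share 5 groups and each library's depth and scaling, so the values describe likeness only.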

How the data were processed

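Total RNA of MOLM13 cells was depleted of ribosomal RNA, made into directional libraries and sequenced in pairs, per the labels' protocols. The authors deposited raw counts per gene for each library, made with Trim Galore, STAR 2.7.10a and HTSeq 1.99.2 (bedtools is also named) on hg38, per the submitters' processing notes. Neither the annotation release nor the strand setting is given in the sources used here, so reads of overlapping antisense genes may not be separable. The deposited values of the MEIS1 experiment are the same kind of whole-number count in another layout. HTSeq's summary lines for reads outside genes (6.07 to 18.1% per library) stayed out of totals and tests.

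Genes were matched to GENCODE 29 without version numbers (57937 of 58278 identifiers). Fits used edgeR 4.0.16 in R 4.3.3 (limma 3.58.1): filterByExpr at 10 counts and 15 in total, TMM, the robust quasi-likelihood F test, and Benjamini-Hochberg adjustment over all tested genes, called under 0.05. The SE is the log2 change over the root of F. The 9 and the 8 libraries of each experiment formed a fit each, and all 17 another for differences between effects. Biological coefficients of variation were 4.63%, 6.75% and 5.92%. The depth of 23.3 to 67.8 M counts per library sets the counting error. The method was tested on simulated counts in which few genes changed, as many up as down. That test does not bear on the choice of scaling.

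The 10 genes and the lists were chosen with earlier results of these data known. The rule named all 10, the targeted genes, at most 3 called genes per list and comparison by smallest p, and the 3 genes most like each of 4 genes. AC010733.2, FCN1, CD163, MRC1, CXCL1, CCL4, CCL20, CD69 and IL6 were named outside it, for an overlap or a low level. BCL3 and NFKBIZ were named outside it to describe their list. Alternatives were RLE factors, scaling to nuclear protein-coding counts, no filter, limma-voom, DESeq2 1.42.0, a minimum mean of 2 CPM, a replicate block, only the groups compared, and leaving out each library. Libraries of a group differed by more than sampling noise (at least 2.9 chi-square per gene), so none was counted as a duplicate.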

Additional observations from a re-analysis of the deposited data

Results flagged for a closer look

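TNFAIP3 in NT_MEIS1ex replicate 1 lay at 58.1 CPM, far from the other 3 control libraries of the MEIS1 experiment at 51.8 to 52.3 CPM. Of 20 sets of 4 libraries examined, 1 gene in 1 group, this was the only one with such a gap, and chance gives about 1 in 20. Without this library the fall of TNFAIP3 in MEIS1_KO was -0.16 with an adjusted p of 0.0404 in edgeR, against -0.21 with it.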

How the results depend on the processing

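Of 1140 values of the 10 genes under the alternatives, 1057 kept their direction and their side of the threshold, 20 lost a call with the same sign, 41 gained one, and 22 changed sign, of which 4 also lost a call. Scaling to nuclear protein-coding counts moved the counts of called genes to 2861 higher and 9293 lower for HOXA9_KO (from 5207 and 5640), 1712 and 5535 for SAFB_KO (from 3812 and 2886), and 2449 and 5845 for HOXA9_KO against SAFB_KO (from 3791 and 3877). For the HOXA9 minus MEIS1 and SAFB minus MEIS1 effects they moved to 1867 and 7777 and to 612 and 3496 (from 4618 and 3703 and from 2330 and 1600). Of the 10 genes, 5 and 1 were then called higher in HOXA9_KO and SAFB_KO, 1 lower in HOXA9_KO against SAFB_KO, 1 higher and 0 lower in MEIS1_KO, and 0 higher and 2 lower in SAFB minus MEIS1. Signs changed under it for NFKB1 (-0.03), NFKB2 (-0.08) and RELA (-0.02) in HOXA9_KO, REL (-0.01) and NFKBIA (-0.07) in SAFB_KO, NFKB1 (-0.04) and RELA (-0.07) between these knockouts, and NFKB2 (0.01) in MEIS1_KO. They also changed for NFKB1 (-0.07), NFKB2 (-0.09), REL (-0.11) and RELA (-0.01) in HOXA9 minus MEIS1 and for NFKB1 (-0.04), TNFAIP2 (-0.09) and TNF (-0.04) in SAFB minus MEIS1. The scaling uses no TMM factor.

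In MEIS1_KO 1 of the 10 genes, TNFAIP2, was called higher with a mean of at least 2 CPM and with DESeq2. In SAFB minus MEIS1 the genes of the 10 called higher were 2 with RLE factors, 2 with no filter, 0 with a mean of at least 2 CPM (1423 of all genes) and 3 with DESeq2. Leaving out each library in turn gave 487 to 944 genes higher and 264 to 828 lower in MEIS1_KO, the lowest of both without MEIS1_KO replicate 3, with 0 to 2 of the 10 higher and 0 to 1 lower. In SAFB minus MEIS1 it gave 0 to 3 of the 10 higher. Signs changed for NFKB2 (-0.14 to 0.03) between HOXA9_KO and SAFB_KO, NFKB2 (-0.09 to 0.06) and RELB (-0.16 to 0.05) in MEIS1_KO and REL (-0.09 to 0.01) in SAFB minus MEIS1. The cause of these changes was not tested.

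Replicate numbers are shared between groups, but libraries of the same number did not deviate together (r -0.289 to 0.101), not every library correlated best with its own number, and nothing in the labels pairs them. With a replicate block the calls in HOXA9_KO were 5188 higher and 5599 lower, and NFKB2 passed at 0.17 (adjusted p 0.0417). In MEIS1_KO they were 729 higher and 466 lower (783 and 604 without). RELB, the gene with the fewest counts, had the widest intervals.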
